A study of Mus musculus with 3072 samples.

Results

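The genes described here are the G1 cyclins and the kinases they bind, namely the D-type cyclins Ccnd1, Ccnd2 and Ccnd3, the E-type cyclins Ccne1 and Ccne2, and the kinases Cdk2, Cdk4 and Cdk6. They were chosen by symbol, and all 8 were found among the 55291 gene symbols of a count matrix of single mouse bone marrow cells. All 8 also passed the expression filter in every comparison below. The cells came from 8 C57BL/6 mice of WT genotype, each of which had received transplanted stem cells carrying barcodes. Of these mice, 4 were controls analysed at week 32 after transplantation and 4 had been depleted of platelets and were analysed at week 28. The sources used here do not give the agent, dose or timing of the depletion, nor the age of the animals. Depletion, week and the experiment code went together in every mouse and cannot be told apart. Single cells were sorted from each mouse as 3 populations labelled HSC, CFU and MkP, names that the labels do not spell out, and were read with Smart-seq2, a plate method that amplifies whole transcripts and here carries no molecular identifiers.

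Progress from G1 into S phase is driven by cyclins that switch on their partner kinases. D-type cyclins are induced by growth factor signals and activate Cdk4 and Cdk6, which begin the phosphorylation of the retinoblastoma protein. E-type cyclins, whose genes are themselves E2F targets, activate Cdk2 and complete that step, so that E2F factors can turn on the genes of DNA replication. Cdk6 is the kinase of this group best known in blood, where its level affects how quickly quiescent stem cells leave G0.

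Of 3069 wells matched to a sample, 2668 were kept as cells, with 24105 to 6910788 counts each. Summed per mouse and population they made 24 sums of 68792249 to 327869432 counts, which are the samples of every test. The labelled populations held different marker genes. The summed level of 6 HSC markers was 542 to 1077 CPM (counts scaled to a common library size) in HSC, against 78 to 137 in MkP and 0.622 to 3.19 in CFU. The 6 erythroid markers summed to 6511 to 9328 CPM in CFU and to at most 902 elsewhere, and the 6 megakaryocyte markers to 2767 to 5020 CPM in MkP and to at most 666 elsewhere. CFU sums were not alike: the 4 myeloid markers stood at 1025 to 1260 CPM in control mice 1 and 3 and depleted mice 2 and 4, and at 2.03 to 10.3 in the other 4, and the 4 neutrophil markers reached 3373 CPM in control mouse 3. Other single sums stood apart too: mast cell and basophil markers were at 764 CPM in MkP of depleted mouse 2 (at most 46.4 in other MkP sums), neutrophil markers at 362 in HSC of depleted mouse 4 (at most 6.36) and B cell markers at 104 in CFU of depleted mouse 2 (at most 2.76). Without either of these 2 mice the numbers of the 8 genes called were the same in all comparisons. Without the 4 CFU sums holding myeloid markers, an alternative chosen after seeing the data, the same numbers of the 8 genes were called in both comparisons of CFU with another population, and 0 between treatments. Median genes per cell were lower in depleted than in control mice in HSC (5595 against 6514), CFU (7908 against 8397) and MkP (5915 against 6921). The part of these differences in the results was not tested.

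Promoter sequence was at hand for 5 of the 8 genes, and it is shown for the 3 kinases, whose windows hold an E-box or an E2F string, and for Ccne1, which differed most between populations. Each line gives the 250 bases before a RefSeq transcription start in GRCm38.p6, 5′ to 3′ on the gene's strand. The windows are chr10:127063285-127063534 on the plus strand for Cdk4, chr5:3343643-3343892 on the plus strand for Cdk6, chr7:38107491-38107740 on the minus strand for Ccne1 and chr10:128705052-128705301 on the minus strand for Cdk2. Capitals mark matches on either strand to the E-box CACGTG or to an E2F string (TTTCCCGC, TTTGGCGC, TTTCGCGC or TTTGCCGC).
Cdk4: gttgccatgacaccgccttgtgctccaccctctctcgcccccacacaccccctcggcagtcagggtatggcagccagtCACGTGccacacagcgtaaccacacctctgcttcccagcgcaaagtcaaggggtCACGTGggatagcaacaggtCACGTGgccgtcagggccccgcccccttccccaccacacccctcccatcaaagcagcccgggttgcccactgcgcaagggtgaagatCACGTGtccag
Cdk6: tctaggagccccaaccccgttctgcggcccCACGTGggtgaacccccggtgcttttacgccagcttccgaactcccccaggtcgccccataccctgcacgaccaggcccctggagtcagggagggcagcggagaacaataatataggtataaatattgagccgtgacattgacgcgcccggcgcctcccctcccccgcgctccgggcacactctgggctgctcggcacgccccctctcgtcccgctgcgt
Ccne1: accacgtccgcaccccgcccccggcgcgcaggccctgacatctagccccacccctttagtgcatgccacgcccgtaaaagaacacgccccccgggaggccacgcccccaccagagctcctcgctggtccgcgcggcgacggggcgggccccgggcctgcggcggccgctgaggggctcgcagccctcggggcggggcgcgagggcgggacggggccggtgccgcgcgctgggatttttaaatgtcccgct
Cdk2: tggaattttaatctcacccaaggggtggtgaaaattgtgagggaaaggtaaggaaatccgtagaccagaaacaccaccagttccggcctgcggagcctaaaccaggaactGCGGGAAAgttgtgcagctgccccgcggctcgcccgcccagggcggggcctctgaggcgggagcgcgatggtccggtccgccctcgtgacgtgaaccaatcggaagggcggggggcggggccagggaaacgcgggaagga
The Cdk4 window held 4 E-boxes and the Cdk6 window 1, where 6.02% of 32851 RefSeq promoter windows of the same length held any. Cdk2 held 1 E2F string, which 1.86% of windows held, and Ccne1 held neither of these motifs. The windows of Ccnd3, the other gene with sequence at hand, are not shown and held neither motif. No window held both an E-box and an E2F string, so no marked matches overlap. The CCAAT box (CCAAT, in 33.8% of windows), a GATA string (AGATAA, 9.99%) and the GC box (GGGCGG, 32.7%) were searched on both strands too and are not in capitals. Ccne1 held 4 GC boxes, Cdk4 1, and Cdk2 5 beside 1 CCAAT box, while Cdk6 held none of the 3. Among the windows shown, GC content was highest for Ccne1 at 76% and lowest for Cdk2 at 63.2%. A match describes the letters alone.

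The D-type cyclins went in different directions between populations. Ccnd1 and Ccnd2 were highest in HSC and lowest in CFU, while Ccnd3 was lowest in HSC. CPM values of the sums from here on are after TMM scaling, and CPM values of single cells are scaled by the total of each cell alone. Tests are edgeR's quasi-likelihood tests, adjusted over all genes by Benjamini and Hochberg's method, with a call at an adjusted p under 0.05.

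Ccnd1 encodes cyclin D1, the D-type cyclin most tied to mitogen signals. Its level ran from 43.4 to 120 CPM in HSC (median 81.5), from 21.9 to 69.7 in MkP (median 38.2) and from 4.46 to 19.8 in CFU (median 11.4). CFU lay below both other populations without overlap, and MkP overlapped HSC although MkP was the lower of the pair in 8 of 8 mice. The log2 fold change was -1.02 (SE 0.18, adjusted p = 0.000154) in MkP against HSC and -2.92 (SE 0.20, adjusted p = 6.22e-12) in CFU against HSC. CFU also fell below MkP by 1.91 on the log2 scale (adjusted p = 8.88e-09). Within control mice alone these 3 changes were -0.89, -2.65 and -1.76, and within depleted mice alone -1.16, -3.26 and -2.10, all called.

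Ccnd2 encodes cyclin D2, which is abundant in blood progenitors. It ran from 584 to 831 CPM in HSC (median 716), from 503 to 620 in MkP (median 539) and from 47.7 to 205 in CFU (median 119). HSC and MkP overlapped, and CFU lay far below both, with control mouse 4 lowest. CFU against HSC gave a log2 fold change of -2.45 (SE 0.18, adjusted p = 2.53e-11) and CFU against MkP one of -2.10 (SE 0.18, adjusted p = 5.37e-10). The control mice alone gave -2.78 and -2.30 and the depleted mice alone -2.18 and -1.95. MkP against HSC was -0.35 (SE 0.17, adjusted p = 0.129) and was not called, although MkP was lower in 8 of 8 mice. That call depended on the setting: it was made without control mouse 4 (-0.32, adjusted p = 0.0485) and by DESeq2 (-0.43, adjusted p = 0.0386), in the fit of the pair alone (adjusted p = 0.000815) and with genes of at least 8 CPM (adjusted p = 0.0316). It was not made in control mice alone (-0.48) or depleted mice alone (-0.23), with adjusted p between 0.000815 and 0.374 over the alternatives.

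Ccnd3 encodes cyclin D3, known for its part in the divisions of erythroid precursors. It ran from 249 to 363 CPM in HSC (median 288), from 337 to 447 in MkP (median 408) and from 387 to 606 in CFU (median 462). CFU lay above HSC without overlap, MkP was above HSC in 8 of 8 mice with some overlap, and CFU and MkP overlapped. Ccnd3 rose by a log2 fold change of 0.67 in CFU against HSC (SE 0.09, adjusted p = 5.71e-07), with 0.60 in control and 0.68 in depleted mice alone. The rise of 0.49 in MkP against HSC (SE 0.09, adjusted p = 0.000172) was 0.63 in depleted mice alone (adjusted p = 0.00045) and 0.31 in control mice alone, where it was not called (adjusted p = 0.185). CFU against MkP, at 0.18 (SE 0.09, adjusted p = 0.0863), was not called with all mice but was called without control mouse 3 (0.22, adjusted p = 0.0422) or without depleted mouse 3 (0.23, adjusted p = 0.044), with a range of 0.0422 to 0.681 over the alternatives. The matrix also holds a Ccnd3 pseudogene with 2032 counts beside 1936489 for Ccnd3, so reads could be shared between these copies.

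Per kilobase of merged exons, the make-up of the D-type cyclin level changed from population to population. Ccnd2 made up 59.9% ± 3.68 of it in HSC, 51.6% ± 2.16 in MkP and 20.2% ± 6.93 in CFU (SD, n = 8 mice each). Ccnd3 made up 26.7% ± 3.72, 40.8% ± 3.69 and 76.3% ± 6.46 in the same order, and Ccnd1 13.4% ± 3.21, 7.62% ± 3.12 and 3.47% ± 1.69. The CFU mice did not overlap either other population in the share of Ccnd2 or Ccnd3. With the longest transcript as the length in place of merged exons, Ccnd3 led in MkP (51.7%) over Ccnd2 (42.9%), so which of the 2 leads there depends on the length used. The summed D-type level was 125 ± 14.3 CPM per kb in HSC, 114 ± 4.24 in MkP and 68.9 ± 5.81 in CFU.

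**Figure D1:**
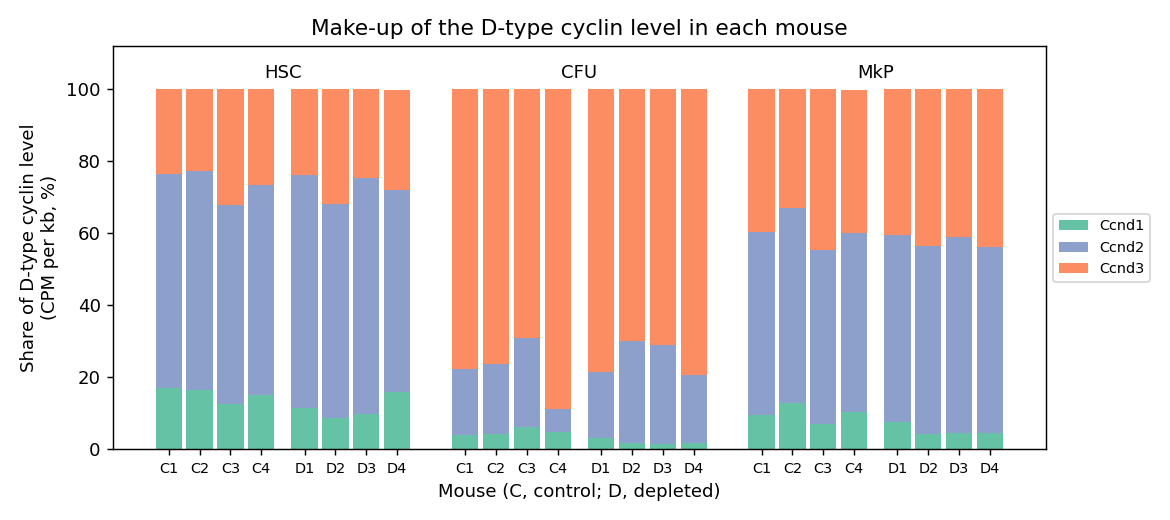
Share of Ccnd1, Ccnd2 and Ccnd3 in the summed D-type cyclin level (percent of CPM per kilobase) in each of 8 mice per population; each bar is 1 mouse, C1 to C4 control and D1 to D4 depleted. Ccnd2 fills 55.3% to 65.6% of each HSC bar, and Ccnd3 69% to 88.7% of each CFU bar.

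E-type cyclins showed the widest gap of the group. Ccne1, which encodes cyclin E1, ran from 388 to 498 CPM in CFU (median 441), from 18 to 27.1 in MkP (median 20.1) and from 0.441 to 20.9 in HSC (median 5.91). CFU stood far above both other populations in every mouse, and MkP was above HSC in 7 of 8. The mean in CFU was 61.9 times that in HSC and 20.5 times that in MkP. Ccne1 gave a log2 fold change of 6.06 in CFU against HSC (SE 0.43, adjusted p = 1.48e-11) and 4.36 in CFU against MkP (SE 0.39, adjusted p = 1.85e-09). Control mice alone gave 5.55 and 4.33 and depleted mice alone 6.57 and 4.36, all called. MkP against HSC was 1.70 (SE 0.36, adjusted p = 0.000724), with 1.22 in control mice alone (adjusted p = 0.0488) and 2.22 in depleted mice alone. The HSC sum with the highest Ccne1, that of control mouse 4, also held the highest erythroid markers of any HSC sum (298 CPM). Without that mouse the rise of Ccne1 in MkP over HSC was 2.11 (adjusted p = 6.13e-05).

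Ccne2, which encodes cyclin E2, followed the same order with smaller gaps. It ran from 108 to 180 CPM in CFU (median 120), from 33.5 to 53 in MkP (median 45.5) and from 3.25 to 36.7 in HSC (median 11.2). CFU did not overlap the others, and control mouse 3 alone brought HSC into the range of MkP. Ccne2 gave a log2 fold change of 3.21 in CFU against HSC (SE 0.33, adjusted p = 1.12e-08), 1.52 in CFU against MkP (SE 0.31, adjusted p = 0.000231) and 1.69 in MkP against HSC (SE 0.32, adjusted p = 0.000229). In control mice alone these were 2.92, 1.76 and 1.16, the last no longer called (adjusted p = 0.17), and in depleted mice alone 3.51, 1.30 and 2.21.

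Per kilobase, Ccne1 made up 82.1% ± 2.48 of the E-type level in CFU against 39.5% ± 7.09 in MkP and 40.5% ± 18.8 in HSC (SD, n = 8). CFU mice lay at 77.7% to 85.8%, above all MkP mice (31.2% to 49.5%) and all HSC mice (4.69% to 66.1%). The summed E-type level was 204 ± 18.9 CPM per kb in CFU, 20.7 ± 1.22 in MkP and 6.71 ± 4.67 in HSC. The D-type level was 26.1 ± 14.2 times the E-type level in HSC, 5.50 ± 0.32 times in MkP and 0.34 ± 0.04 times in CFU, without overlap between populations.

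Cdk6 and Cdk4, the partners of the D-type cyclins, peaked in different populations. Cdk6 ran from 1117 to 1470 CPM in MkP (median 1290), from 467 to 642 in CFU (median 524) and from 143 to 448 in HSC (median 345). None of these ranges overlapped. Cdk6 rose by a log2 fold change of 1.92 in MkP against HSC (SE 0.16, adjusted p = 6.21e-09), with 1.92 in control and 1.88 in depleted mice alone. CFU against MkP was -1.27 (SE 0.16, adjusted p = 2.53e-07), with -1.29 and -1.28 in the 2 sets of mice. CFU against HSC was 0.65 (SE 0.15, adjusted p = 0.000808), which control mice alone did not carry past the threshold (0.63, adjusted p = 0.0676) and depleted mice alone did (0.60, adjusted p = 0.00244).

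Cdk4 ran from 1002 to 1178 CPM in CFU (median 1059), from 551 to 680 in MkP (median 612) and from 355 to 563 in HSC (median 432). CFU lay above both, and MkP lay above HSC in 8 of 8 mice with a narrow overlap. Cdk4 gave a log2 fold change of 1.29 in CFU against HSC (SE 0.07, adjusted p = 3.81e-13), 0.81 in CFU against MkP (SE 0.07, adjusted p = 1.99e-09) and 0.49 in MkP against HSC (SE 0.07, adjusted p = 1.76e-05). These were 1.14, 0.74 and 0.40 in control mice alone and 1.39, 0.84 and 0.54 in depleted mice alone, all called.

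Cdk2, the partner of the E-type cyclins, varied least of the 8 genes. It ran from 178 to 216 CPM in MkP (median 195), from 172 to 205 in CFU (median 192) and from 106 to 168 in HSC (median 142). HSC lay below both others without overlap, and CFU and MkP shared most of their range. The log2 fold change was 0.50 in MkP against HSC (SE 0.08, adjusted p = 4.5e-05) and 0.47 in CFU against HSC (SE 0.08, adjusted p = 2.55e-05). CFU against MkP was -0.03 (SE 0.08, adjusted p = 0.748) and was called only with genes of at least 8 CPM (-0.17, adjusted p = 0.0433). Its level thus barely moved between the 2 populations whose Ccne1 levels stood 20.5 times apart.

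Cdk6 per kilobase made up 32.6% ± 2.63 of the summed Cdk4 and Cdk6 level in MkP, 15.1% ± 4.13 in HSC and 10.3% ± 0.96 in CFU (SD, n = 8). MkP mice, at 29.6% to 35.8%, lay above all others. Cdk4 was therefore the more abundant kinase per length in every population, at 332 ± 21.1 CPM per kb in CFU, 190 ± 12.9 in MkP and 136 ± 20.9 in HSC, where Cdk6 stood at 38 ± 3.99, 91.7 ± 8.34 and 24.3 ± 7.58.

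**Figure D2:**
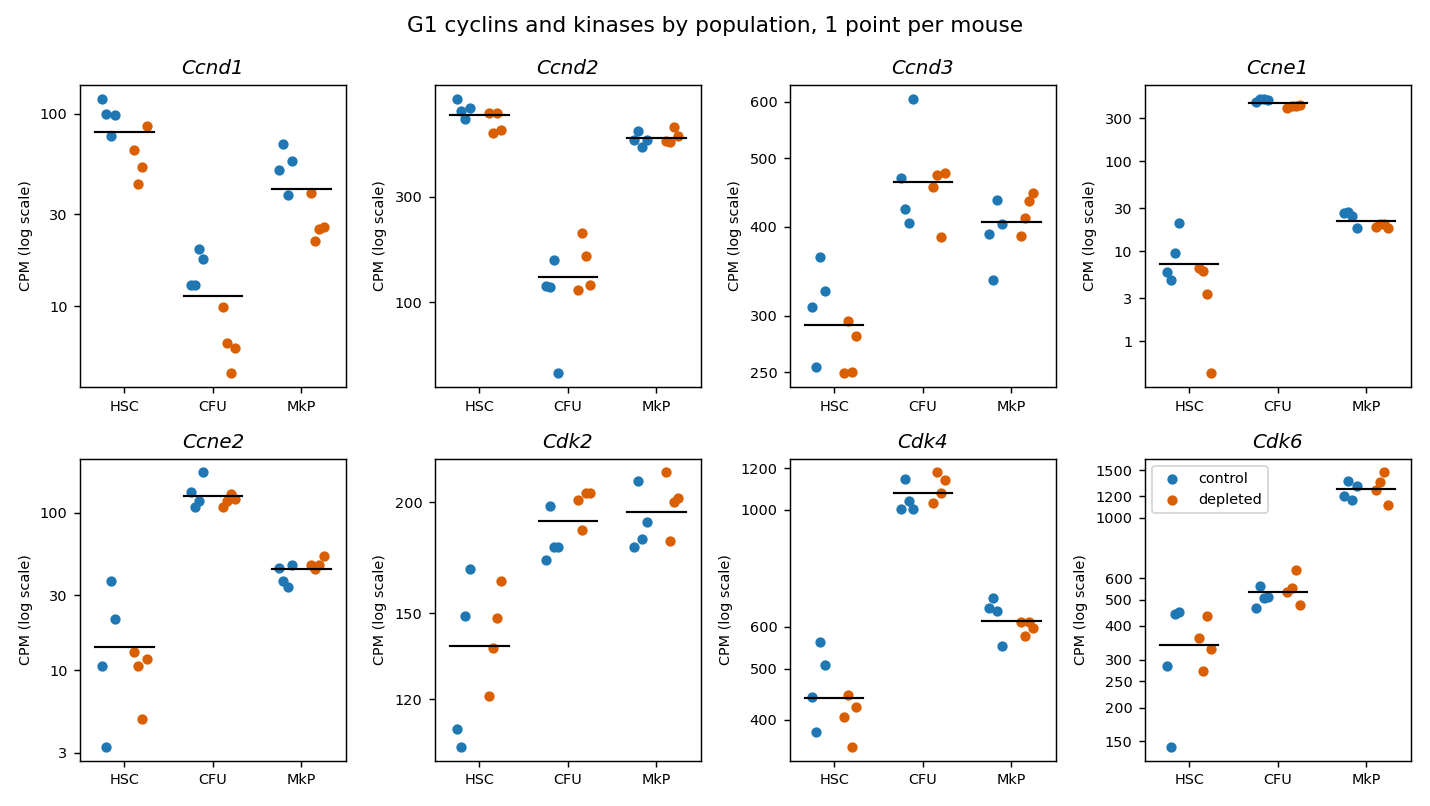
Level of each gene in CPM after TMM scaling (log axis, own range per panel) by population; points are mice, control or depleted, and the black line is the mean of 8 mice. Ccne1 in CFU sits at 388 to 498 CPM, above at most 27.1 elsewhere, and Cdk6 in MkP at 1117 to 1470, above at most 642 elsewhere.

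Counted together, 7 of the 8 genes were called in MkP against HSC, 6 higher and 1 lower, where 29.9% of 20852 genes were called (16.8% higher, 13.1% lower). In CFU against HSC all 8 were called, 6 higher and 2 lower, beside 63.5% of all genes (27.7% higher, 35.8% lower). In CFU against MkP 6 were called, 3 higher and 3 lower, beside 53.4% (22.3% higher, 31.1% lower). The median log2 fold change over all genes was 0.006, -0.272 and -0.246 in these comparisons, and -0.382 in CFU against HSC by DESeq2's scaling. Each direction given above for a called gene was the same under every alternative run. How many of all genes also lay without overlap between populations was not counted, so the separations given above are not particular to these genes on that ground. In the annotation used for lengths, each of these genes except Ccne1 overlaps a gene on the opposite strand, so reads of the pair cannot be told apart where the counting, whose strand rule the sources used here do not state, ignored strand.

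**Figure D3:**
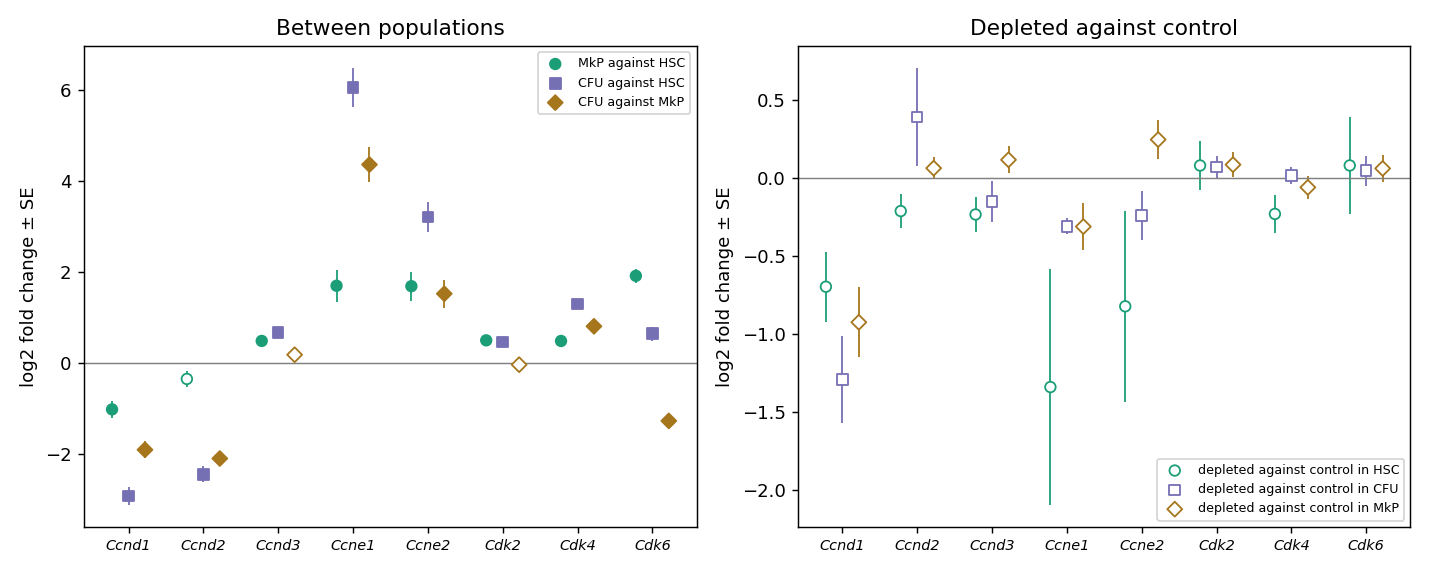
Log2 fold change with its standard error for each gene, between populations (left) and in depleted against control mice (right), from edgeR; filled markers are called and open markers are not. On the left Ccne1 in CFU against HSC stands highest at 6.06 and Ccnd1 lowest at -2.92, and on the right no marker is filled.

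Single cells were compared after thinning each to 100000 counts, which left out 12 shallower cells (6 HSC, 1 CFU and 5 MkP). Ccnd2, Ccnd3 and Cdk4 gave a count in most cells of every population, from 75.6% ± 9.54 of CFU cells for Ccnd2 to 99.8% ± 0.48 of CFU cells for Cdk4 (SD over 8 mice). Ccnd1 was counted in 51.8% ± 14.4 of HSC, 37.3% ± 13.4 of MkP and 21.3% ± 9.32 of CFU. Before thinning these shares were 62.6%, 48.4% and 37.2%.

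Ccne1 was counted in 97.0% ± 2.96 of CFU cells, 18.9% ± 2.86 of MkP and 7.96% ± 4.61 of HSC. Ccne2 was counted in 85.4% ± 5.13, 36.9% ± 4.54 and 13.9% ± 8.23. After thinning it was thus the more often counted E-type cyclin in HSC and MkP, and Ccne1 was in CFU. Without thinning the order in HSC was the reverse, at 31.1% for Ccne1 and 27.1% for Ccne2. Unthinned shares of Ccne1 in HSC and MkP were much higher, 31.1% and 37.3%, with the upper decile of HSC cells starting at only 1.73 CPM. The HSC above that decile carried 97.0% of the summed Ccne1 level, and those above the upper decile of Ccne2 95.3% of its level, against 20.5% and 30.1% in CFU.

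The 2 E-type cyclins were found together in 84.5% ± 5.31 of CFU cells, 12.4% ± 2.38 of MkP and 2.85% ± 2.93 of HSC. Ccne2 without Ccne1 was seen in 24.5% ± 3.79 of MkP, 11.1% ± 5.93 of HSC and 0.93% ± 0.93 of CFU. An E-type cyclin without any D-type cyclin was seen in 0 of 691 HSC and 0 of 1319 MkP, which allows shares of up to 0.434% and 0.227%, and in 1 of 646 CFU. These limits are counted over cells pooled from 8 mice, so they cover counting error only and leave out differences between mice.

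By counts per cell and per length, Ccnd2 was the leading D-type cyclin in 77.7% ± 5.1 of HSC, 58.9% ± 4.61 of MkP and 20.1% ± 8.17 of CFU. Ccnd3 led in 17.8% ± 6.13, 39.2% ± 4.67 and 77.3% ± 7.87. The length here was merged exons, and these shares were not computed with the longest transcript. By that length Ccnd3 led the summed level in MkP (51.7% against 42.9% for Ccnd2), so the leader per MkP cell may depend on it too. All 3 D-type cyclins were counted in 48.5% ± 14.4 of HSC, 36% ± 12.9 of MkP and 15.9% ± 7.6 of CFU. Ccnd2 and Cdk6 were counted in the same cell in 97.6% ± 1.76 of MkP, 85% ± 6.67 of HSC and 75.4% ± 9.34 of CFU.

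Cdk6 was counted in 85.7% ± 6.26 of HSC and in 99.8% ± 0.30 of MkP and 99.5% ± 0.88 of CFU. Cdk4 without Cdk6 was seen in 13.6% ± 5.56 of HSC and Cdk6 without Cdk4 in 2.74% ± 2.6. In HSC the middle of the Cdk6 distribution was wide, with quartiles at 45.5 and 486 CPM around a median of 182, against 892 and 1833 around 1342 in MkP. Cdk2 was counted in 65.3% ± 8.02 of HSC, 83.3% ± 7.11 of MkP and 96% ± 3.09 of CFU. The mean level of Cdk2 per sum was near equal in CFU and MkP, while the share of cells with a count was 96% in one and 83.3% in the other.

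**Figure D4:**
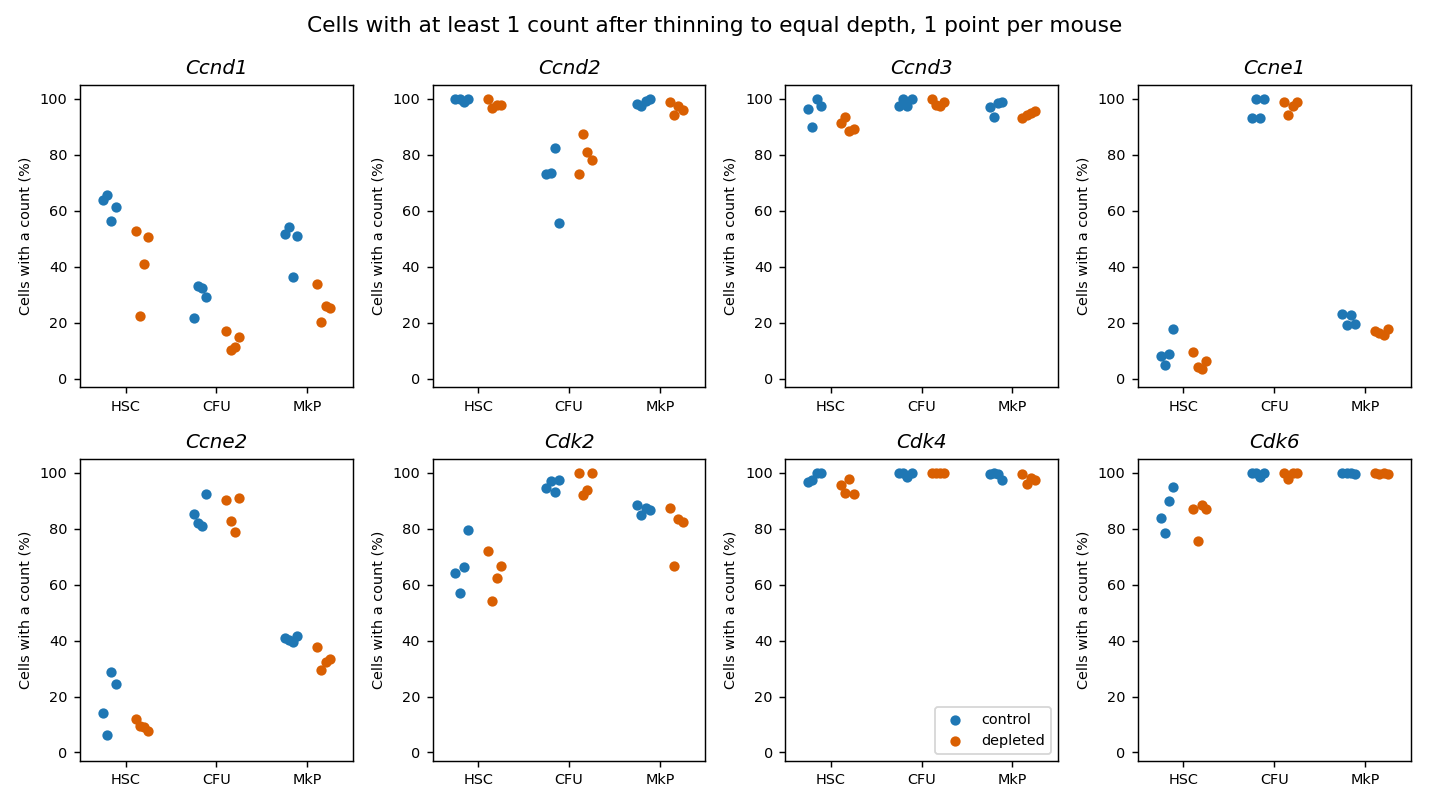
Percent of cells with at least 1 count of each gene after thinning to 100000 counts, by population and treatment; each point is 1 mouse. Ccnd1 points of depleted mice lie below those of control mice in all 3 populations, and Ccne1 separates CFU (93.2% to 100%) from MkP and HSC (at most 23.2%).

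Cells were also divided by a count of Mki67, a marker of cycling cells that is not among the 8 genes. Mki67 was counted in 15.1% ± 8.0 of HSC, 48.8% ± 11.1 of MkP and 96.9% ± 3.2 of CFU (SD, n = 8), which left too few CFU cells without it to compare. The cells with Mki67 were deeper, with median counts of 1574889 against 1315168 in HSC and 1831629 against 1502310 in MkP. No test was run on these ratios, which are means of the log2 ratio within each mouse.

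In HSC, Ccne2 stood 2.67 ± 1.62 higher on the log2 scale in cells with Mki67 (higher in 8 of 8 mice) and Ccne1 2.22 ± 2.16 higher (7 of 8). All 3 kinases stood higher in 8 of 8 mice, Cdk6 by 0.85 ± 0.35, Cdk4 by 0.50 ± 0.19 and Cdk2 by 0.32 ± 0.26. Ccnd3 was higher in 7 of 8 mice at 0.38 ± 0.26. Ccnd2, at -0.38 ± 0.36, was lower in 7 of 8 mice and Ccnd1, at -0.77 ± 0.88, in 6 of 8. Each HSC sum held only 4 to 24 cells with Mki67. With Top2a in place of Mki67, Ccnd1 in HSC turned to 0.11 and Ccnd2 was near even at -0.08, while Ccne1 (3.31), Ccne2 (3.28) and Cdk6 (0.63) stayed higher.

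In MkP, Ccne1 was higher in cells with Mki67 in 8 of 8 mice (1.21 ± 0.78) and Ccne2 in 7 of 8 (0.89 ± 0.64). Ccnd2 was lower in 8 of 8 mice (-0.54 ± 0.11). Cdk6 was also lower in 8 of 8 mice (-0.23 ± 0.11), where in HSC it was higher in 8 of 8. Ccnd1 was lower in 7 of 8 (-0.31 ± 0.45), Ccnd3 was 0.10 ± 0.17, and Cdk4 and Cdk2 differed little, by 0.06 ± 0.05 and 0.12 ± 0.18. With Top2a in place of Mki67, Ccne1 and Ccne2 in MkP stood higher by 2.29 and 1.92 and Cdk6 was near even at -0.05. Cdk4 and Cdk2 then stood higher by 0.32 and 0.33, more than with Mki67, and Ccnd2 stayed lower at -0.39.

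**Figure D5:**
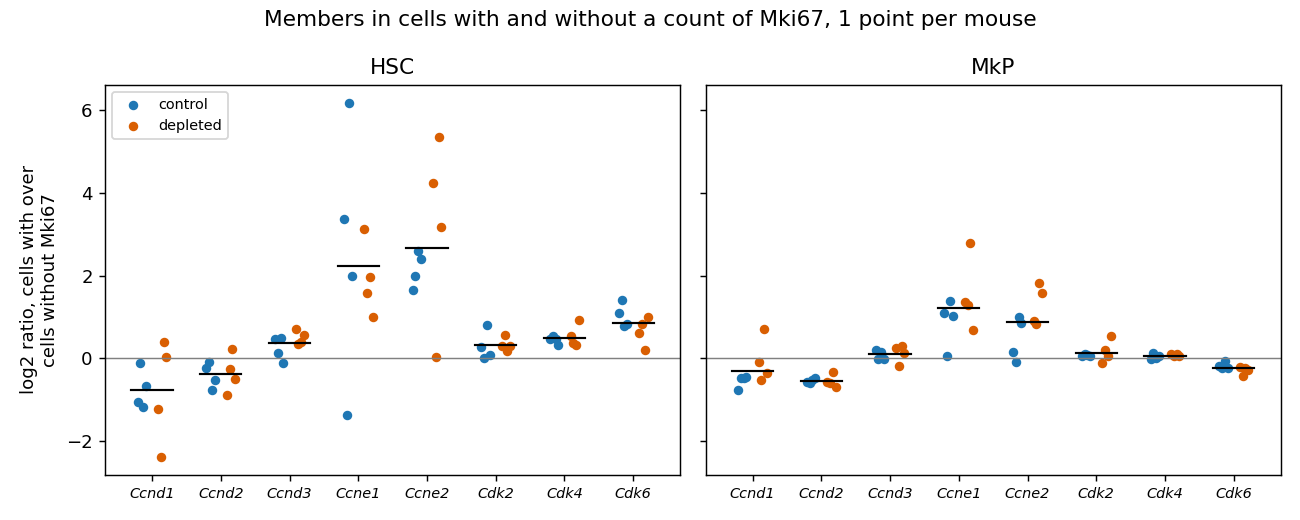
Log2 ratio of each gene's level in cells with a count of Mki67 over cells without, in HSC and MkP; points are mice, control or depleted, and the black line is the mean of 8 mice. Cdk6 points lie above 0 in HSC (0.21 to 1.42) and below 0 in MkP (-0.43 to -0.05).

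Depleted and control mice were compared within each population to ask whether loss of platelets was followed by a change in these genes. By edgeR, 0 of the 8 genes were called in HSC, CFU or MkP. In simulated data this test called 33%, 49% and 56% of log2 changes of 1 in these populations. A gene not called may therefore still have changed. Over all genes 0% were called in HSC and in CFU and 0.0108% in MkP, where 1467, 1857 and 2532 genes had an unadjusted p under 0.05. DESeq2 called 2 of the 8 genes in CFU, 1 in MkP and 0 in HSC, beside 3.01%, 5.16% and 1.56% of all genes.

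Ccnd1 had a lower mean in depleted mice in all 3 populations. In CFU it was 12.9, 12.9, 19.8 and 17.6 CPM in control mice 1 to 4 and 9.93, 6.39, 4.46 and 6.05 in depleted mice 1 to 4. The groups were apart, with all depleted mice the lower. How many of all genes had levels apart in this way was not counted. The log2 fold change was -1.29 (SE 0.28, adjusted p = 0.249). It was called by DESeq2 (-1.30, adjusted p = 0.000738), in the fit of all 6 groups (-1.24, adjusted p = 0.0499) and with genes of at least 8 CPM (-1.35, adjusted p = 0.0492). Its alternatives gave adjusted p between 0.000738 and 0.555.

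In MkP, Ccnd1 was 51.2, 69.7, 37.6 and 56.6 CPM in control mice and 38.9, 21.9, 25.3 and 25.7 in depleted mice. Depleted mouse 1 lay above control mouse 3, and otherwise the groups were apart. The log2 fold change was -0.93 (SE 0.23, adjusted p = 0.176), and it was called by DESeq2 (-0.94, adjusted p = 0.00203) and with genes of at least 8 CPM (-0.99, adjusted p = 0.0302), in a range of 0.00203 to 0.347. In HSC, Ccnd1 was 120, 100, 76.7 and 98.2 CPM in control mice and 64.7, 43.4, 52.9 and 86.3 in depleted mice, with depleted mouse 4 above control mouse 3. That difference of -0.70 (SE 0.22, adjusted p = 0.456) was called under no alternative. The 3 populations come from the same mice, so these are not 3 separate tests of the treatment.

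The share of cells with a count of Ccnd1 was lower in depleted mice without overlap in each population. HSC had 61.9% ± 4.15 in control against 41.6% ± 13.8 in depleted mice (SD, n = 4 each). CFU had 29.1% ± 5.32 against 13.4% ± 3.2, and MkP 48.3% ± 8.11 against 26.3% ± 5.67. Unthinned shares were 74.8% and 50.4%, 47.5% and 27%, and 61.7% and 35%. The other genes also had lower mean shares in depleted HSC (-8.84 to -1.59 points) and depleted MkP (-7.33 to -0.128 points). In CFU they went both ways, from -0.237 to 8.79 points. How many of all genes were apart between the groups in this way was not counted. The lower number of genes per cell in depleted mice moved with the shares of Ccnd1, and its part in them was not tested. Differences in the treatment effect on Ccnd1 between populations were not called by edgeR (interaction -0.27 for MkP against HSC, -0.56 for CFU against HSC and -0.29 for CFU against MkP), nor were those of the other 7 genes, where 0.0144%, 0% and 0% of all genes were called. At an unadjusted p under 0.05 stood Cdk4 alone of the 8 genes, in CFU against HSC (p = 0.0454), and by DESeq2 0 of 8 were called in any interaction.

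Ccne1 in CFU was 463, 498, 496 and 477 CPM in control mice 1 to 4 and 388, 412, 408 and 419 in depleted mice 1 to 4. The groups were apart, by a small amount, and how many of all genes had levels apart in this way was not counted. The log2 fold change of -0.31 (SE 0.05, adjusted p = 0.175) was called by DESeq2 (-0.31, adjusted p = 6.08e-06) and with genes of at least 8 CPM (-0.36, adjusted p = 0.0397), in a range of 6.08e-06 to 0.922. In MkP, Ccne1 at -0.31 (SE 0.15, adjusted p = 0.401) and Ccne2 at 0.25 (SE 0.13, adjusted p = 0.429) were not called. Both were counted in fewer cells of depleted MkP without overlap between the groups, where the mean shares of the other genes were lower too. Ccne1 was counted in 21.2% ± 2.14 of control and 16.6% ± 0.79 of depleted MkP, and Ccne2 in 40.5% ± 0.96 and 33.2% ± 3.36. How many of all genes were apart in this way was not counted. Mki67 was counted in 57.2% ± 8.77 of control and 40.4% ± 4.93 of depleted MkP, and its part in those shares was not tested.

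The remaining differences between treatments were not called, and their ranges overlapped. Ccne1 in HSC, at -1.34 (SE 0.76, adjusted p = 0.65), and Ccne2 in HSC, at -0.82 (SE 0.62, adjusted p = 0.749), had the largest standard errors of the group. Ccne2 in CFU differed by -0.24 (SE 0.16). Ccnd2 differed by -0.21, 0.39 and 0.06 in HSC, CFU and MkP, and Ccnd3 by -0.23, -0.15 and 0.12. Cdk2 differed by 0.08, 0.07 and 0.09, Cdk4 by -0.23, 0.02 and -0.06, and Cdk6 by 0.08, 0.05 and 0.06. Cdk6 in HSC was 284, 143, 443 and 448 CPM in control mice and 361, 273, 436 and 328 in depleted mice.

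The wider pathway was read from 6 lists of genes around the G1 cyclins, whose counts stand beside the 29.9%, 63.5% and 53.4% of all genes called in MkP against HSC, CFU against HSC and CFU against MkP. The Rb family and E2F list holds Rb1 and its relatives, which the kinases target, and the E2F and Tfdp factors. Of its 13 genes, 9 were called higher and 2 lower in MkP against HSC (median log2 fold change 0.89), 10 and 2 in CFU against HSC (median 1.10), and 5 and 2 in CFU against MkP (median 0.20). E2f8, a repressor of the family, stood at 9.8 ± 4.98 CPM in HSC, 90.1 ± 16.7 in MkP and 97.4 ± 13.4 in CFU (SD, n = 8). E2f4, which works with the Rb relatives, was at 34.4 ± 5.99 in HSC, 50.5 ± 4.14 in MkP and 235 ± 22.3 in CFU, a rise of 2.77 over HSC (adjusted p = 1.5e-16). E2f7, also a repressor, went the other way between CFU and MkP, at 7.19 ± 2.56 against 22 ± 6.1 CPM (log2 fold change -1.64, SE 0.39, adjusted p = 0.00111).

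Of 7 CDK inhibitors 6 were tested. In MkP against HSC 1 was called higher and 1 lower (median -0.17), and in CFU 4 were lower and 0 higher against HSC (median -1.91) and against MkP (median -1.92). Cdkn1c, which encodes the inhibitor p57 known from quiescent stem cells, stood at 11.9 ± 6.86 CPM in HSC, 0.965 ± 0.719 in MkP and 0.177 ± 0.207 in CFU. Its fall was -3.52 in MkP against HSC (SE 0.73, adjusted p = 0.000666). Cdkn2d, an inhibitor of Cdk4 and Cdk6, was highest in MkP at 91.6 ± 11.5 CPM against 56.6 ± 8.26 in HSC and 9.82 ± 2.22 in CFU, a rise of 0.69 in MkP over HSC (SE 0.12, adjusted p = 0.000115).

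Genes of DNA replication and of later cell cycle steps were higher with the E-type cyclins. Of 13 replication genes, all 13 rose in MkP against HSC (median 1.30) and in CFU against HSC (median 2.16), and 12 in CFU against MkP (median 0.98). Rrm1, a subunit of the reductase that makes deoxynucleotides, was at 164 ± 81.3 CPM in HSC, 394 ± 25.3 in MkP and 1166 ± 71.3 in CFU. Cdc6, a licensing factor of replication origins, was at 34.3 ± 21.4, 88.3 ± 11.5 and 411 ± 37.6. The 4 later cell cycle genes, Ccna2, Ccnb1, Ccnb2 and Cdk1, rose in all 3 comparisons (medians 2.06, 3.79 and 1.58), with Ccna2 at 34.4 ± 25.6 CPM in HSC, 143 ± 34.6 in MkP and 553 ± 29.5 in CFU.

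Of 5 activators of the kinases, 1 rose in MkP against HSC and 4 in CFU against HSC (medians 0.24 and 0.81), and in CFU against MkP 4 rose and 1 fell (median 0.75). Cdk7, the kinase that activates the others, rose by 1.46 in CFU against HSC (SE 0.10, adjusted p = 6.17e-12), from 51.6 ± 8.93 to 142 ± 15.9 CPM. Of 9 genes of cyclin degradation, 3 rose in MkP against HSC and 6 in each CFU comparison, with 0 lower (medians 0.27, 0.77 and 0.42). In MkP against HSC and CFU against HSC those shares of the list were near the shares called over all genes. So were the shares of the CDK inhibitors called in either direction in the same comparisons. The share of the Rb family and E2F list called in either direction in CFU against MkP was near that over all genes as well. Cks1b, a cofactor of the Skp2 ligase, was at 64.6 ± 28.3 CPM in HSC, 195 ± 36.9 in MkP and 352 ± 42 in CFU. In depleted against control mice edgeR called 0 of the 49 list genes tested in HSC, CFU or MkP, where 7, 7 and 13 had an unadjusted p under 0.05. By DESeq2 there were 7 calls in MkP and 2 each in HSC and CFU, of the same 49 genes, where 5.16%, 1.56% and 3.01% of all genes were called. The median of the replication genes was -0.67 in HSC, 0.00 in CFU and 0.04 in MkP. That of the 4 later cell cycle genes was -0.37 in HSC, 0.01 in CFU and -0.44 in MkP, and 3 of the 4 had an unadjusted p under 0.05 in MkP. DESeq2 called Ccna2, Ccnb2 and Cdk1 there, names given after their values were seen.

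The genes whose levels followed each member most closely were taken over the 24 sums, among 9375 other genes with a mean of at least 8 CPM. The sums share 8 mice and 3 populations, so these correlations describe mostly the differences between populations. Ccnd1 was most like Trim12c (Pearson r = 0.96) and Akap13 (0.937), and Ccnd2 most like Paqr7 (0.986) and Trim14 (0.984). Ccnd3 was most like Cdt1 (0.916) and Lig1 (0.914). Ccne1 was most like Lmna (0.984) and Smpd4 (0.98), and Ccne2 most like Mcm7 (0.986) and Mcm5 (0.985). Cdk2 was most like Jpt2 (0.919) and Smarcb1 (0.904), Cdk4 most like Mtch2 (0.991) and Hat1 (0.991), and Cdk6 most like Rfc2 (0.954) and Slc14a1 (0.93). Among the 8 genes themselves, r was 0.953 for Ccne1 with Cdk4, 0.935 for Ccne2 with Cdk4 and 0.8 for Ccnd1 with Ccnd2.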

How the data were processed

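Wells of single-cell Smart-seq2 plates were read as the deposited counts, whole numbers of reads per gene that the authors left unnormalized. The submitters' processing notes name Trim Galore 0.5, STAR 2.6.0 and HTSeq 0.6.1, while genome build, annotation and strand setting were not found in the labels. Of 3070 columns in the matrix, 3069 were matched to a sample and 1 was not used. Population, treatment and week came from the labels, and the mouse from the code that opens each title, which the labels do not explain in words. If those codes did not mark mice, the p-values would measure only the spread between these sums.

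Wells with at least 20000 counts, 1000 genes and at most 20% mitochondrial counts were kept, 2668 in all, and 401 fell under the filter. No doublet caller was run, since each well was sorted as 1 cell, and an alternative left out cells with over 10000 genes. Counts of symbols on several rows were added up. Counts were summed per mouse and population into 24 sums and tested with edgeR 4.0.16 (limma 3.58.1, R 4.3.3), using TMM scaling, edgeR's filter on low counts, its quasi-likelihood test and Benjamini-Hochberg adjustment over all genes, with a threshold of 0.05. Populations were fitted over all 24 sums with treatment as a covariate, interactions over all 6 groups, and treatments within each population. DESeq2 1.42.0, other filters, thinned cells, other sets of samples and each mouse left out were alternatives. Shares of cells and ratios by Mki67 were computed with Python 3.11.15, numpy 2.4.6 and pandas 2.3.3 after thinning to 100000 counts with a fixed seed. Lengths were merged exons from GENCODE on GRCm38, and RefSeq supplied promoters.

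The same mice gave all 3 populations, by their title codes. Deviations from the group means correlated over 9375 genes with a median of 0.06 for HSC with CFU of 1 mouse, 0.08 for HSC with MkP and 0.11 for CFU with MkP, against -0.02, -0.03 and -0.03 between mice. Deviations from a group mean add to 0 within the group. Values above 0 within mice therefore draw those between mice below 0, and the latter are no separate baseline. Fits with the mouse as a block are given among the alternatives. The fits were tested on simulated data. Between treatments, log2 changes of 1 were called for 33% of changed genes in HSC, 49% in CFU and 56% in MkP. Changes of 2 were called for 65.7%, 79% and 74%. False calls made up 4.9%, 7.2% and 3% of the calls. In MkP against HSC changes of 1 and 2 were called for 54% and 78%, with 2.9% false.

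The genes described, the pathway lists and the markers were chosen with earlier results of these data known. Beside the 8 genes, the text names up to 3 called genes with the largest change per list and comparison, and for each of the 8 the 2 genes with the highest correlation. Counts are reads after amplification without molecular identifiers, so counting limits understate the error.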

Additional observations from a re-analysis of the deposited data

Results flagged for a closer look

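Of 96 groups of 4 mice tested, 6 had 1 mouse apart from the other 3. Each of the 6 was a share of cells with a count of a gene after thinning to 100000 counts. The 96 groups were not all of such shares, so 6 of 96 is not the rate for shares alone. Chance gives such a gap in about 1 in 20 groups of a measure without a ceiling, a rate that does not apply where the other mice are at 100%. The widest was Cdk6 in depleted HSC, counted in 75.5% of cells of mouse 2 and in 87.1% to 88.6% of the other mice. In the other 5 groups the remaining mice were all at 100%, so that any mouse below it was singled out. Mouse 3 of the control group stood at 98.8% for Ccnd2 in HSC and at 98.6% for both Cdk4 and Cdk6 in CFU. Cdk6 was counted in 97.7% of CFU cells of depleted mouse 2 and in 99.4% of MkP of control mouse 4.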

How the results depend on the processing

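The number of the 8 genes called between populations (7, 8 and 6) changed under some alternatives. In MkP against HSC it ran from 5 in control mice alone (14.6% of all genes) to 8, as by DESeq2 (32.3%). In CFU against HSC it was 7 in control mice alone (53.9%). In CFU against MkP it reached 7, as with genes of at least 8 CPM (74%). Between treatments, 0 were called in CFU by edgeR, against 2 by DESeq2 (3.01% of all genes), 2 with genes of at least 8 CPM (0.468%) and 1 in the fit of all 6 groups (0.245%), and in MkP 0 against 1 by DESeq2 (5.16%) and 1 with genes of at least 8 CPM (1.59%). The cause was not tested. With the mouse as a replicate block, 7, 8 and 6 of the genes were called between populations and 0 in the interactions, so the block changed no call of theirs.

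No called fold change turned sign. Several treatment differences near 0, none called, did. Cdk4 in CFU was -0.02 in thinned cells, -0.04 with genes of at least 8 CPM and -0.06 without the CFU sums holding myeloid markers, and -0.01 to 0.05 with 1 mouse left out. Cdk6 in CFU was -0.01 in thinned cells and -0.00 with genes of at least 8 CPM, and -0.04 to 0.11 with 1 mouse left out. In HSC with 1 mouse left out, Cdk6 was -0.16 to 0.26 and Cdk2 -0.00 to 0.21, and Cdk2 was -0.00 in thinned cells. Ccnd2 in MkP was -0.01 in thinned cells. With Top2a in place of Mki67, the ratio of Ccnd2 in CFU was 0.23 and that of Ccnd1 in HSC 0.11, both below 0 with Mki67.

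Over all genes, calls between treatments were 0, 0 and 2 in HSC, CFU and MkP, against 267, 472 and 955 by DESeq2, 6, 37 and 147 with genes of at least 8 CPM, 47, 51 and 1 in the fit of all 6 groups, and 1, 6 and 0 in thinned cells. Interaction calls of 3, 0 and 0 became 315, 587 and 457 by DESeq2. Calls in MkP against HSC fell from 6242 to 2777 in control and 3591 in depleted mice alone. With genes of at least 8 CPM, 9445 in place of 20852 were tested, and calls in CFU against HSC and MkP went from 13245 and 11128 to 7692 and 6986, or from 63.5% and 53.4% to 81.4% and 74% of those tested. The fits of 1 treatment alone and those without CFU sums holding myeloid markers were chosen after seeing the data. Ccne1 and Ccne2 were counted in few HSC, and these shares rose from 7.96% and 13.9% to 31.1% and 27.1% without thinning.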
